A study of Mus musculus with 3 samples.

Results

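The ubiquitin-specific protease and F-box protein genes were examined for Setd1a peaks at their promoters in cultured quiescent adult neural stem cells (NSCs). The members were all protein-coding genes on chromosomes 1 to 19 of the GENCODE M21 annotation (mm10) whose names begin with Usp, Fbxl, Fbxo or Fbxw and a number. These were 127 of 20807 protein-coding genes, of which 50 were Usp, 36 Fbxo, 18 Fbxl and 23 Fbxw. A member was counted with a peak when at least 1 of its annotated transcripts had a transcription start site (TSS) no more than 1000 bp from a peak. The choice of members used their names alone and no value of the peak list. Genes were kept by name and not by enzyme activity. *Usp6nl*, for example, encodes a GTPase-activating protein and not a deubiquitinase.

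Setd1a was mapped by CUT & RUN, in which an antibody directs a nuclease to cut chromatin beside the bound protein and the released DNA is sequenced. The cells were NSCs, labelled as neural progenitor cells, from the dentate gyrus of Hopx-CreERT2::Setd1afl/fl::H2B-GFP mice aged 7 to 8 weeks. Their genotype was given as WT, so the floxed Setd1a alleles were taken as intact, and the *Hopx* promoter drives an inducible Cre in quiescent radial glia-like cells of the mouse. All cultures were first grown with FGF2 and EGF, changed after 16 h to medium that lacked EGF and held BMP4 and FGF2, each at 20 ng/ml, and taken at day 5. There were 2 Setd1a libraries from independent cultures and 1 IgG control library, and the 1 list of 6969 peaks holds those found in both Setd1a libraries. The study's culture scheme adds lentivirus for Cre-GFP or GFP alone at day 2, before the day of this assay, and the labels of these libraries do not name a virus. The list gives the position of each peak without height or p-value, so neither the spread between replicates nor the depth is known. Intervals on shares below are 95% Wilson intervals and cover counting error over genes only. Of 13 markers of neural stem cells, 9 had a promoter peak, among them *Sox2*, *Nes* and *Gfap*, whereas *Hopx*, *Fabp7*, *Slc1a3* and *Sox9* had none. Of the markers of other cell types, 0 of 6 for neurons, 1 of 5 for the oligodendrocyte lineage (*Olig2*), 0 of 5 for microglia and 0 of 4 for endothelium had one. The interval for the neural stem cell markers was 42.4 to 87.3%, beside 22.5% of all protein-coding genes. The intervals for the other cell types all include 22.5%, so these counts cannot show that their markers lacked peaks more often than other genes. The neuron marker *Dcx* lies on the X chromosome, where 2.43% of protein-coding genes had a peak. The markers were not split by promoter class, and no difference was tested.

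Ubiquitin is a small protein that is attached to other proteins and, as chains, marks many of them for the proteasome. F-box proteins are the substrate receptors of SCF ubiquitin ligases: the F-box binds Skp1, which links it to the cullin *Cul1*, and a second domain binds the substrate. The last letter of the name gives that domain, with leucine-rich repeats in Fbxl, WD40 repeats in Fbxw and other domains in Fbxo proteins. Ubiquitin-specific proteases are the largest family of deubiquitinases and remove ubiquitin again. Both families act on cyclins, Notch, histones and DNA repair proteins, and so take part in the control of cell division and cell fate. Setd1a belongs to a complex that methylates histone H3 at lysine 4, and its subunit Cxxc1 binds unmethylated CpG dinucleotides, which are dense in CpG islands.

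Promoter sequences of members with and without a peak are shown first, to show the CpG dinucleotides (in capitals) at the promoters the counts below refer to. The sequences are from the GRCm38 reference, and none overlaps an annotated exon. For *Usp1* (chr4:98923660-98923809, plus strand) and *Fbxo5* (chr10:5805601-5805750, minus strand), the 150 bases before the TSS are printed, all of them inside the peak. For *Usp20* and *BC005624* (chr2:30982202-30982278, plus strand) and for *Fbxo2* and *Fbxo44* (chr4:148160483-148160620, plus strand), the stretch between the divergent starts is printed, of which 100% and 81.2% lay in the peak.
Usp1: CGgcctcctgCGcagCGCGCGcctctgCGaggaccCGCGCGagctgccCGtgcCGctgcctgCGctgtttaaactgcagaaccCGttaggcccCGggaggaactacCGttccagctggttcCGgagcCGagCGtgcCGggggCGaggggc
Fbxo5: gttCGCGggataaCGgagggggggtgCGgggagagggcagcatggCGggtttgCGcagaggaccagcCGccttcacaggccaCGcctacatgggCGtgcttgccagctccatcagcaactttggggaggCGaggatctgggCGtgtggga
Usp20/BC005624: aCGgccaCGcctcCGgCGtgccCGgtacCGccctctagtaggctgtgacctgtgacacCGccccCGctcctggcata
Fbxo2/Fbxo44: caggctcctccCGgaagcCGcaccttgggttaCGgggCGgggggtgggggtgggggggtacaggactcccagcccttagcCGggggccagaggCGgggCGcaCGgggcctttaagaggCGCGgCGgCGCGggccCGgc

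The next sequences are the 150 bases before the gene start of members without a peak. They are from the tandem copies *Fbxw18* (chr9:109702701-109702850, minus strand) and *Fbxw27* (chr9:109790671-109790820, minus strand), and from *Usp17ld* (chr7:103252506-103252655, minus strand).
Fbxw18: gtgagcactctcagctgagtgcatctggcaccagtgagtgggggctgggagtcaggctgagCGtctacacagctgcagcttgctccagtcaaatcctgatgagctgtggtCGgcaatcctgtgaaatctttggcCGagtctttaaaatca
Fbxw27: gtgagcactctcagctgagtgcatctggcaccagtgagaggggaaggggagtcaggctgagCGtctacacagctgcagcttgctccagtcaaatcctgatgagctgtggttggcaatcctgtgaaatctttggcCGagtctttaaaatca
Usp17ld: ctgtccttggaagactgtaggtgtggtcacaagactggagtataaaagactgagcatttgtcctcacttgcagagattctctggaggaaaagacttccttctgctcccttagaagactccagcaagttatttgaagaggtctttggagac
The stretch at *Usp1* held 20 CpGs and that at *Fbxo5* held 11. *Fbxw18* held 3, *Fbxw27* held 2 and *Usp17ld* held 0. The stretches of *Fbxw18* and *Fbxw27* had the same base at 145 of 150 positions.

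A Setd1a peak lay within 1000 bp of a TSS of 45 of the 127 members (35.4%, interval 27.7 to 44.1%), compared with 22.5% of all protein-coding genes. The peaks nearest the starts of these 45 members were 44 distinct intervals, since *Fbxo2* and *Fbxo44* lie back to back at the same one. With the second peaks of *Usp32* and *Usp36* there were 46. By family, the share was lowest among the Fbxw genes. Among Usp genes 20 of 50 had a peak (40%, interval 27.6 to 53.8%), among Fbxo genes 16 of 36 (44.4%, 29.5 to 60.4%) and among Fbxl genes 7 of 18 (38.9%, 20.3 to 61.4%). Among Fbxw genes there were 2 of 23 (8.7%, 2.42 to 26.8%), namely *Fbxw7* and *Fbxw11*. Of the 9 Fbxw genes without a relative of the same family within 100 kb, 2 had a peak (22.2%, interval 6.32 to 54.7%). The intervals of the Fbxl and Fbxw families include the 22.5% of all genes. No test of these differences was made, because the genes are not independent replicates and several are tandem copies.

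**Figure D1:**
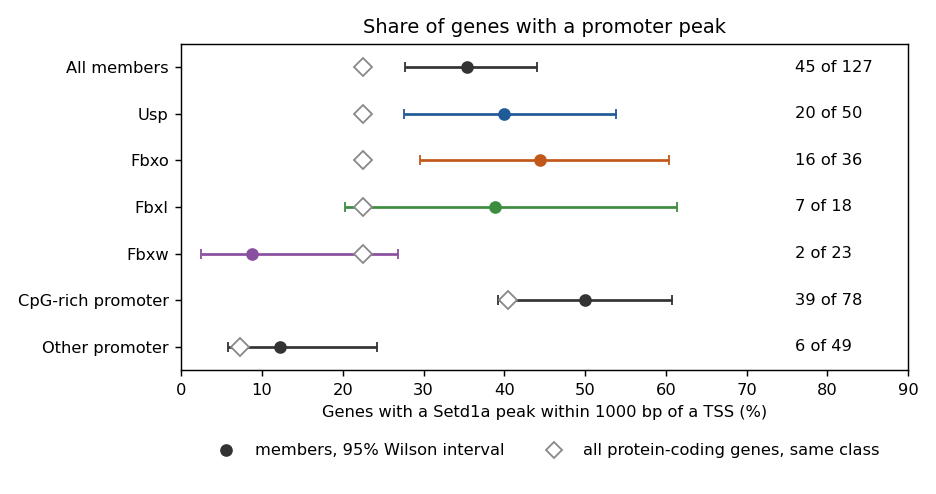
Share of genes with a Setd1a peak within 1000 bp of a TSS (x axis, %), for all members, each family and each class of promoter. Points with bars are members with 95% Wilson intervals, diamonds are all protein-coding genes of the same class, and the counts are at the right; Fbxw lies lowest of the families at 8.7%.

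The share of members with a peak was higher at CpG-rich promoters than at others, with intervals that did not overlap. A promoter was called CpG-rich when the 500 bp on each side of the gene start had an observed to expected CpG ratio of at least 0.6 and a GC content of at least 50%. Of the members, 78 of 127 (61.4%) had such a promoter, compared with 45.7% of all protein-coding genes. Of these 78, 39 had a peak (50%, interval 39.2 to 60.8%), beside 40.5% of all genes of this class. Of the other 49 members 6 had a peak (12.2%, interval 5.73 to 24.2%), beside 7.32% of all such genes. Within each class the background lay inside the interval of the members, whereas over both classes together 22.5% lay below it. The class was set at the gene start, while a peak could lie at any TSS. Taken at any annotated TSS instead, the CpG-rich class held 93 members, of which 43 had a peak (46.2%, interval 36.5 to 56.3%). For all protein-coding genes of that class it was 39.1%. With the ratio at the gene start raised to at least 0.75, 28 of 59 members had a peak (47.5%, interval 35.3 to 60.0%), beside 46.2% of all such genes. Members with a peak had a median CpG ratio of 0.775 (range 0.201 to 1.09) and those without one had a median of 0.575 (range 0.0215 to 1.05), so that the ranges overlapped widely. Within the CpG-rich class, a peak was present at 19 of 35 Usp, 13 of 25 Fbxo, 5 of 12 Fbxl and 2 of 6 Fbxw genes. The Fbxw family thus had 17 of 23 genes outside the class, and 0 of these 17 had a peak.

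**Figure D2:**
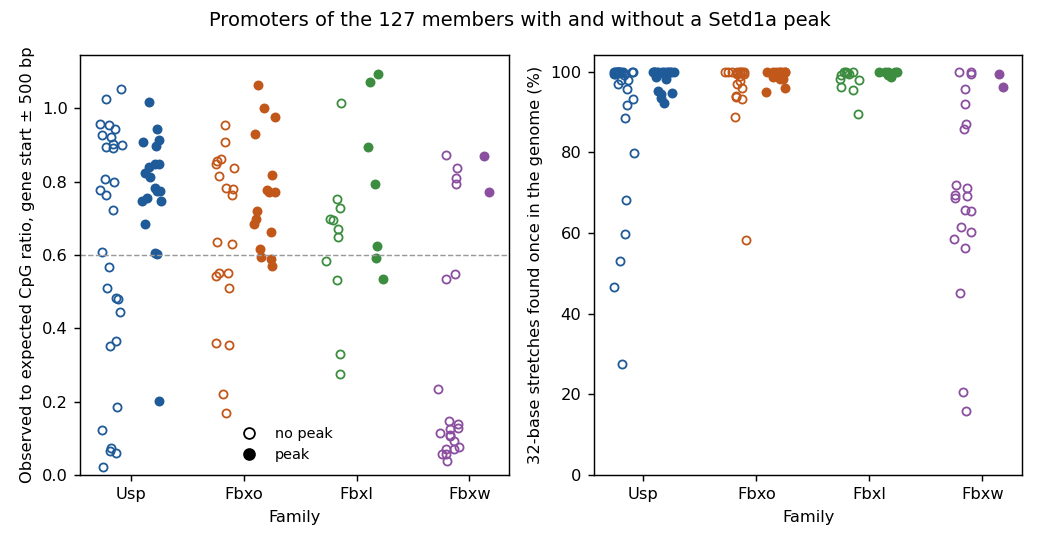
Observed to expected CpG ratio around the gene start (left) and percent of 32-base stretches in the promoter windows found once in the genome (right), for each of the 127 members by family (x axis). Filled points have a Setd1a peak and open points have none, and the dashed line marks the ratio of 0.6; members with a peak lie between 92.3 and 100% in the right panel.

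Among the deubiquitinases, those that act on DNA repair and histones were listed together with their partners. *Usp1*, which removes ubiquitin from PCNA and Fancd2, had a peak of 1126 bp over its TSS (chr4:98922936-98924061), and its upstream bases are the first printed above. Of 10 deubiquitinases of histones H2A or H2B, 4 had a peak (interval 16.8 to 68.7%, which includes the 22.5% of all genes), namely *Usp3*, *Usp22*, *Usp36* and *Usp46*, and 6 had none, namely *Usp7*, *Usp12*, *Usp16*, *Usp21*, *Usp44* and *Usp49*. *Usp22* is the deubiquitinase of the SAGA coactivator complex, and its peak of 1082 bp (chr11:61174645-61175726) was among the wide ones. Its adaptors in SAGA, *Atxn7l3*, *Eny2* and *Atxn7*, also had promoter peaks, of 864, 413 and 998 bp. *Usp3* had a peak of 711 bp over its TSS, and *Usp46*, which also acts on glutamate receptors at synapses, had a peak of 807 bp.

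*Usp1*, *Usp12* and *Usp46* need *Wdr48* for full activity. Of these 4 genes, *Usp1* and *Usp46* had a peak, while *Usp12* and *Wdr48* had none. *Wdr20*, a second partner of *Usp12* and *Usp46*, had a peak of 813 bp. In the list of deubiquitinases of p53 and genome maintenance 2 of 6 had a peak (interval 9.68 to 70%, also with 22.5% inside it): *Usp1* and *Usp10*, which removes ubiquitin from p53 and had a peak of 561 bp. *Usp7*, which acts on Mdm2 and p53, had none, while *Gmps*, a binding partner of *Usp7*, had a peak of 424 bp. *Usp4*, *Usp28* and *Usp47* also had none, although all 3 had CpG-rich promoters.

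The other Usp genes with a peak act in many compartments. *Usp5*, which takes apart free ubiquitin chains, had a peak of 941 bp over its start. *Usp8*, a deubiquitinase of endosomes that acts on internalized receptors, had a peak of 455 bp over its start. *Usp15*, which acts on the TGF-β receptor complex, had a peak of 611 bp that began 21 bp downstream of a TSS. At *Usp34*, which acts on axin in Wnt signalling, the peak of 484 bp ended 553 bp upstream of the TSS. *Usp19*, which is anchored in the endoplasmic reticulum, and *Usp2*, which acts on cyclin D1, had peaks of 332 and 237 bp, both downstream of the TSS by 50 and 108 bp. *Usp48*, *Usp53* and *Usp54* had peaks of 391, 409 and 363 bp.

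*Usp32* and *Usp36* were the only members with more than 1 promoter peak. At *Usp32*, a membrane-anchored protease, peaks of 377 and 451 bp lay at chr11:85139593-85139969 and chr11:85140236-85140686, the first over a TSS and the second 75 bp upstream of another. At *Usp36*, a nucleolar deubiquitinase, a peak of 322 bp lay over the gene start (chr11:118290233-118290554), and a second of 266 bp lay 94 bp upstream of an internal start (chr11:118263378-118263643).

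Among the F-box genes, the list of cell cycle regulators had 5 of 9 members with a peak (interval 26.7 to 81.1%, beside 22.5% of all genes and 40.5% of those with CpG-rich promoters). *Fbxo5* encodes Emi1, the inhibitor of the anaphase-promoting complex, and had a peak of 672 bp over its start (chr10:5805272-5805943). *Fbxw7*, the receptor for cyclin E, Myc and Notch, had a peak of 1210 bp that ended 456 bp upstream of the gene start (chr3:84813603-84814812). *Fbxw11*, also called β-TrCP2 and a receptor for β-catenin and Emi1, had a peak of 241 bp that ended 36 bp upstream. Its paralogue *Btrc*, which the naming rule does not take, had a peak of 640 bp. *Fbxo4*, linked to the turnover of cyclin D1, and *Fbxl7*, linked to Aurora A, had peaks of 392 and 363 bp. *Fbxo31*, *Fbxo43* (Emi2), *Fbxl12* and *Fbxw8* had none, and neither had *Skp2*, the receptor for the cell cycle inhibitor p27.

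The Fbxl genes with a peak included regulators of iron, chromatin and signalling. *Fbxl5*, the iron sensor that targets Irp2, had its peak at a start 39488 bp from the beginning of the gene model. The beginning of its model was not CpG-rich (ratio 0.535), whereas its peak was (ratio 0.956 and GC 69.0%). *Fbxl19*, which itself binds CpG islands through a CXXC zinc finger, had the widest peak of all members at 1449 bp (chr7:127744714-127746162). *Fbxl16*, an F-box protein abundant in brain, had a peak of 1393 bp (chr17:25808799-25810191). *Fbxl14*, a receptor for Snail, had a peak of 543 bp that ended 156 bp upstream of the TSS, and *Fbxl15*, a receptor for Smurf1, had a peak of 538 bp.

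In the list drawn up for glycoprotein-binding F-box genes, the neighbours *Fbxo2* and *Fbxo44* had a peak. *Fbxo6*, *Fbxo17* and *Fbxo27* had none, which makes 2 of 5 (interval 11.8 to 76.9%, with 22.5% inside it). Whether each listed protein binds glycoproteins was not checked. *Fbxo2* and *Fbxo6* lie on either side of *Fbxo44*, all within 20.7 kb of chromosome 4, with 1 peak in that span. Of 6 F-box genes known for muscle or germ cells 3 had a peak (interval 18.8 to 81.2%, beside 22.5% of all genes): *Fbxo32*, which encodes the muscle atrophy ligase atrogin-1, with 465 bp, *Fbxo24* with 727 bp and *Fbxo47* with 263 bp. *Fbxo39*, *Fbxo40* and *Fbxo43* had none. *Fbxo45*, an F-box protein of neurons that pairs with Mycbp2 in place of *Cul1*, had a peak of 256 bp that began 491 bp downstream of the TSS. *Fbxo11*, a receptor for Bcl6, had a peak of 594 bp that ended 621 bp upstream. The remaining Fbxo genes with a peak were *Fbxo3*, *Fbxo10*, *Fbxo25*, *Fbxo30*, *Fbxo33*, *Fbxo36* and *Fbxo46*, with widths of 300, 256, 640, 451, 635, 798 and 419 bp.

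The position of the peaks relative to the TSS is given for the members and for all genes with a peak. A TSS was inside the peak at 27 of 45 members (60.0%, interval 45.5 to 73.0%), compared with 76.3% of all protein-coding genes with a peak. The peak ended upstream of the TSS at 13 members (28.9%, compared with 14.1%) and began downstream at 5 (11.1%, compared with 9.63%). The midpoints had a median position of -91.5 bp for members and -13.0 bp for all genes with a peak, where negative values are upstream of the TSS. By family, a TSS was covered at 14 of 20 Usp, 8 of 16 Fbxo, 5 of 7 Fbxl and 0 of 2 Fbxw genes. Counted over all 127 members, 21.3% had a peak over a TSS, compared with 17.2% of all genes. The difference in position was not tested.

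**Figure D3:**
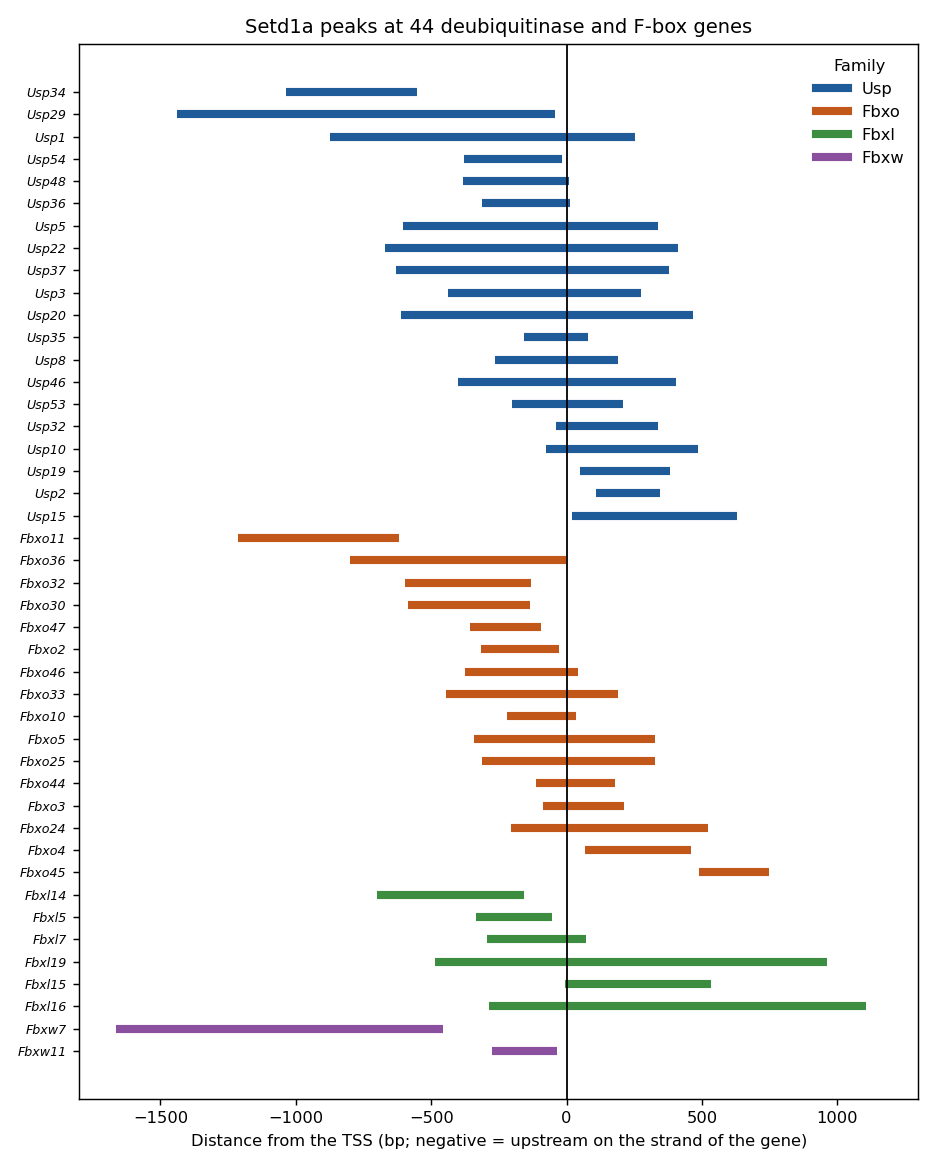
Position of the peak nearest a TSS for 44 of the 45 members with a peak, with the distance from that TSS in bp on the x axis (negative is upstream on the strand of the gene) and 1 bar per gene drawn to its width. Most bars cross the TSS, and the farthest from it, at Fbxo11, ends 621 bp upstream.

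The window of 1000 bp was not close to the distances of most members. The members nearest the limit from inside were *Fbxo11* at 621 bp, *Usp34* at 553 bp, *Fbxo45* at 491 bp and *Fbxw7* at 456 bp. Just outside it lay *Usp21*, a deubiquitinase of histone H2A, and *Fbxl18* with a peak at 2251 bp. The peak of *Usp21* lay 1141 bp downstream of an internal start, itself 5085 bp from the gene start. The gene nearest to that peak was *Ppox*. The next member was *Fbxo9* at 3733 bp. *Usp43* was the only member whose sole peak lay farther inside the gene, with 599 bp over an exon (chr11:67896866-67897464), 20247 bp from its own TSS. That interval had a CpG ratio of 0.196, below that of any peak at the promoter of a member, where the lowest was 0.382.

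The width of the peak is the only measure of size that the list allows. The median width of the nearest peak was 474.5 bp (quartiles 334.2 and 744.8, n = 44), compared with 536 bp (quartiles 372 and 769.5) for the 3999 promoter peaks of all protein-coding genes. Peaks of 1000 bp or more made up 8 of 44 (18.2%) beside 10.7% of all promoter peaks. These 8 were at *Fbxl16*, *Fbxl19*, *Fbxw7*, *Usp1*, *Usp20*, *Usp22*, *Usp29* and *Usp37*. The widest Fbxo peaks were narrower, with 798 bp at *Fbxo36*, 727 bp at *Fbxo24* and 672 bp at *Fbxo5*. The narrowest member peak, 233 bp at *Usp35*, was also the narrowest width in the whole list.

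**Figure D4:**
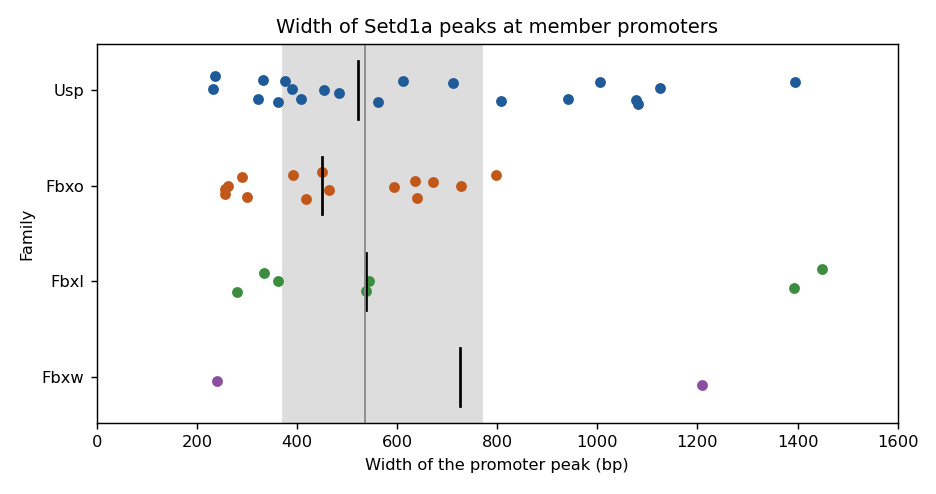
Width of the promoter peak in bp (x axis) at members of each family (y axis), 1 point per distinct peak, with the family median as a black line. The grey band spans the quartiles of 372 and 769.5 bp of all promoter peaks and the grey line marks their median of 536 bp; 8 member peaks reach 1000 bp.

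A peak near 2 genes cannot be given to either of them, and this held for 12 of the 45 members (26.7%, interval 16.0 to 41.0%), beside 29.7% of all protein-coding genes with a peak. At 9 of the 12, the nearest start of the second coding gene ran in the opposite direction from a divergent promoter. *Usp29* is an imprinted gene that starts 147 bp from the paternally expressed *Peg3*. Their peak of 1395 bp (chr7:6729141-6730535) covered the TSS of *Peg3* and ended 43 bp upstream of that of *Usp29*. *Usp20*, which acts with the von Hippel-Lindau ligase pathway, starts 78 bp from *BC005624* under a peak of 1078 bp that covered both starts (chr2:30981668-30982745). *Usp5* starts 63 bp from *Cdca3*, a gene of mitotic entry, and its peak also covered both starts (chr6:124829147-124830087). *Fbxo3* and *4931422A03Rik* (67 bp apart) and *Fbxo24* and *Lrch4* (165 bp apart) likewise had both starts inside 1 peak.

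At other divergent pairs the peak covered 1 start or none. The peak of *Fbxo2* and *Fbxo44*, 290 bp wide and printed in part above, covered the start of *Fbxo44* and ended 27 bp before that of *Fbxo2*, 139 bp away. At *Usp35* and *Kctd21*, an adaptor of *Cul3*, the starts were 307 bp apart and the peak covered that of *Usp35*. *Fbxo45* and *Wdr53* start 69 bp apart, and their peak covered neither of them. The remaining 3 members had another arrangement. *Usp37*, which acts on cyclin A, had its peak of 1006 bp at an alternative start 38001 bp from the beginning of its model, with the start of *Cnot9* inside the same peak. *Fbxo36* lies beside *Trip12*, itself a ubiquitin ligase, which has annotated starts on both sides of that of *Fbxo36*. The peak there ended 1 bp before the start of *Fbxo36*, and 5 annotated transcripts of *Trip12* started inside it, while the *Trip12* start nearest to that of *Fbxo36* lay outside. *Usp10* shares its start region with *Gm20388*, a model on the same strand whose start is 16 bp away. A noncoding gene started within 1000 bp of the peak at 7 of the 45 members, namely *Fbxl5*, *Fbxo30*, *Fbxo32*, *Fbxo47*, *Usp15*, *Usp29* and *Usp54*.

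**Figure D5:**
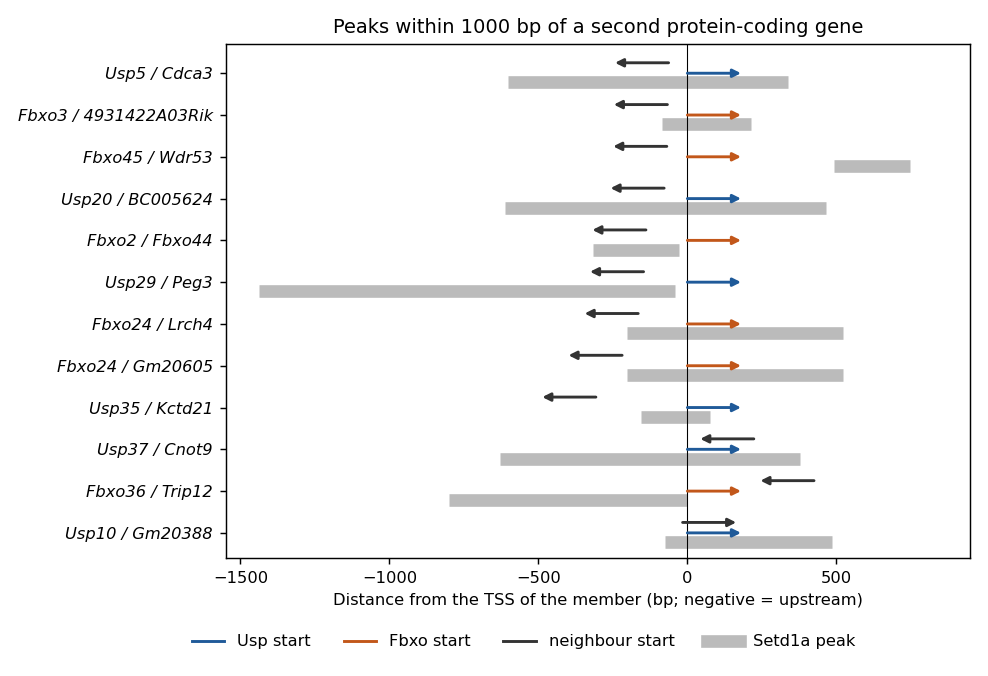
Setd1a peaks (grey bars) at members whose peak is within 1000 bp of a second protein-coding gene, with distance from the TSS of the member in bp on the x axis and arrows from each start in the direction of transcription. Coloured arrows are members and dark arrows the nearest start of each neighbour (for Trip12, 5 other transcripts start inside the bar); the Fbxo45 peak is the one among the divergent pairs that reaches neither start.

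The largest group of members without a peak was made of 14 Fbxw genes, *Fbxw13* to *Fbxw16*, *Fbxw18* to *Fbxw22* and *Fbxw24* to *Fbxw28*, side by side on chromosome 9 (chr9:109139447-109790670). This stretch of 651 kb held 0 peaks, and the nearest lay 79923 bp before and 140675 bp after it. Their promoters had CpG ratios of 0.038 to 0.147 and GC contents of 45.9 to 50.1%. The 5 Usp17l genes on chromosome 7 (*Usp17la* to *Usp17le*) had 0 promoter peaks and CpG ratios of 0.0215 to 0.123. They are spread over 1610 kb that also hold 81 other protein-coding genes, and that whole span held 0 peaks. Across all members, 26 had a relative of the same family within 100 kb, and 4 of these had a peak.

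Reads had been mapped uniquely, so sequence that recurs in the genome could give few or no reads. The stretches of 32 bases used here were not matched to the read length. Longer reads could map uniquely where such a stretch recurs. Among the 14 clustered Fbxw genes, 15.8 to 72.0% (median 63.5%) of the 32-base stretches within 1000 bp of the gene start occurred once in the genome. At the Usp17l genes this was 27.4 to 88.5%. The upstream stretches of the clustered Fbxw genes had the same base at 16.0 to 96.7% of positions over their 91 pairs (median 26%), aligned at the start without gaps. A shift of a few bases between copies lowers this value even where sequence is shared. A low value therefore does not mean that 2 promoters are unrelated. In all, 26 members had fewer than 90% unique stretches and 0 of them had a peak, while 45 of the other 101 had one. The limit of 90% was chosen after seeing the data and lies just below 92.3%, the lowest value of a member with a peak. The 0 therefore depends on where the limit was set, and unique stretches were not measured for all genes. Besides the 2 tandem groups, the 26 were *Fbxl18*, *Fbxo27*, *Fbxo34*, *Fbxw8*, *Fbxw9*, *Usp7* and *Usp14*. All of the 26 except *Fbxw8* and *Fbxw9* were also outside the CpG-rich class, so CpG content and repeated sequence cannot be told apart in these genes. Whether either bears on the missing peaks was not tested.

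The members without a peak also included 39 with CpG-rich promoters. Among the Usp genes these were *Usp4*, *Usp6nl*, *Usp12*, *Usp13*, *Usp16*, *Usp24*, *Usp25*, *Usp28*, *Usp31*, *Usp33*, *Usp38*, *Usp39*, *Usp40*, *Usp42*, *Usp43* and *Usp47*. Among the F-box genes they were *Fbxo6*, *Fbxo7*, *Fbxo8*, *Fbxo9*, *Fbxo21*, *Fbxo22*, *Fbxo28*, *Fbxo31*, *Fbxo38*, *Fbxo42*, *Fbxo43*, *Fbxo48*, *Fbxl4*, *Fbxl6*, *Fbxl8*, *Fbxl12*, *Fbxl17*, *Fbxl20*, *Fbxl21*, *Fbxw2*, *Fbxw4*, *Fbxw8* and *Fbxw9*. *Fbxo7* is a Parkinson disease gene whose product also binds Cdk6, *Usp16* removes ubiquitin from histone H2A, and *Usp33* acts on the Robo1 receptor. Outside the CpG-rich class and the tandem groups, no peak was found at *Usp7*, *Usp14*, *Usp18*, *Usp21*, *Usp30*, *Usp44*, *Usp45*, *Usp49*, *Usp50*, *Fbxo15*, *Fbxo16*, *Fbxo17*, *Fbxo27*, *Fbxo34*, *Fbxo39*, *Fbxo40*, *Fbxo41*, *Fbxl2*, *Fbxl13*, *Fbxl18*, *Fbxl22*, *Fbxw5*, *Fbxw10* and *Fbxw17*. The distance from a TSS to the nearest peak for the 82 members without one had a median of 89140 bp and reached 1164096 bp at *Usp17lc*. Since the depth is unknown, a missing peak is only an absence from this list.

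The letters of known promoter motifs were counted in the 300 bp around the midpoint of the nearest peak of each member, on both strands, as a description of sequence. Counts of peaks below refer to these windows. At peaks narrower than 300 bp, such as that of *Usp35* (233 bp), the window reached past the peak, so a motif counted there may lie outside it. The Sp GC box (GGGCGG) was present in 35 of 44 member peaks (79.5%, interval 65.5 to 88.8%), compared with 66.9% of all promoter peaks and 43.7% of all promoters of the same length. The CCAAT box of NF-Y (CCAAT) was in 12 peaks (27.3%, compared with 32.1% and 38.6%), among them *Usp1*, *Usp5*, *Usp20*, *Usp22* and *Fbxo5*. The core of the ETS motif (CCGGAAG) was in 7 peaks (15.9%, compared with 15.4% and 11.0%), and the peak of *Fbxo2* and *Fbxo44* was one of them. An E-box (CACGTG) was in 6 (13.6%, compared with 9.03% and 7.82%), including *Fbxl5* and *Fbxo33*. For these 4 motifs the value of all promoter peaks lies inside the interval of the member peaks. The NRF1 core (CGCATGCG) was in 1 peak, at *Usp5*, the cyclic AMP response element (TGACGTCA) in 1, at *Fbxo33*, and the YY1 motif (AAGATGGC) in 2, at *Fbxo3* and *Usp46*.

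Other genes of the same pathway were counted from lists of 74 genes that are not members. Of these 41 had a promoter peak (55.4%, interval 44.1 to 66.2%), beside the 22.5% of all protein-coding genes and 40.5% of those with CpG-rich promoters. The listed genes were not split by CpG class, and the lists were chosen with earlier results of these data known. The difference was not tested. In the SCF core and the neddylation machinery that activates it 8 of 12 had one (interval 39.1 to 86.2%). These were *Rbx1*, *Nedd8*, *Cand1*, *Nae1*, *Ube2m*, *Cdc34*, *Ube2r2* and *Cks1b*. *Cul1* and *Skp1a*, the scaffold and adaptor that hold the F-box protein, had none, nor had *Rnf7* and *Uba3*. Of the F-box genes with other names, *Btrc*, *Kdm2b* and *Ect2l* had a peak (3 of 7). Of 6 other cullins, *Cul3* and *Cul4a* had one.

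A list of deubiquitinases of other families also held related subunits that are not deubiquitinases, such as *Cops6* and *Psmd7*. In it 18 of 35 genes had a peak (51.4%, interval 35.6 to 67.0%), including *Otub1*, *Cyld*, *Tnfaip3*, *Cops6* and *Uchl5*, which works at the proteasome. This interval overlaps that of the Usp members. It includes the 40.5% of all protein-coding genes with CpG-rich promoters, while the 22.5% of all protein-coding genes lies below it. Of 6 cofactors of Usp members, 5 had a peak, beside the same shares of all genes. *Uspl1* and *Pan2*, which are related to the Usp genes, had one each. These lists were not split by CpG class, and no difference from all genes was tested.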

How the data were processed

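CUT & RUN libraries were made with an antibody against Setd1a (2 replicates) or with IgG (1 library). Per the labels and the methods, the authors demultiplexed reads with bcl2fastq 2.17.1.14, trimmed them with Trimmomatic 0.32, mapped them uniquely to mm10 with Bowtie2 2.1.0, filtered on mapping quality with SAMtools 0.1.18, called peaks with MACS2 2.2.8 at default parameters and kept those in both replicates. The deposited list gives the start and end in bp of 6969 peaks, with no score. Whether IgG served as the control in peak calling is not given in the sources used here. Reads per library are unknown.

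Peaks were placed on GENCODE M21 transcripts with Python 3.11.15, pandas 2.3.3, numpy 2.4.6 and pysam 0.24.0. Distances ran from each TSS to the closer peak edge, with 0 for overlap. Sequence came from the RefSeq copy of GRCm38, indexed with samtools 1.23.1. Figures were drawn with matplotlib 3.10.9. The distance rule was tested on simulated intervals. Some genes are not reported here. Every other member is named, with values for the members of fixed lists, for the 3 widest peaks of each family, for peaks of 1000 bp or more and for shared promoters. The genes and lists were chosen with earlier results of these data known. No test between groups was possible, because both replicates form 1 list and the IgG library has none here. The alternatives varied the promoter window, the transcripts, the assignment of shared peaks, the minimum width, the CpG thresholds and the tandem or repeated members.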

Additional observations from a re-analysis of the deposited data

How the results depend on the processing

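The share of members with a peak was computed under 10 alternatives to the window of 1000 bp, all transcripts and all peaks. It ranged from 21.3 to 44.6%. It was 21.3% (interval 15 to 29.2%) when the peak had to overlap a TSS, beside 17.2% of all protein-coding genes, so that the excess of members over all genes was no longer outside the interval. It was 44.6% over members with at least 90% unique stretches. Under the other alternatives the share of all genes, from 19.3 to 24.1%, stayed below the interval of the members. Where tandem or repeated members were left out, all genes were not filtered in the same way and kept their share of 22.5%. Those comparisons therefore set filtered members beside unfiltered genes. Requiring overlap gave 22.2% for *Fbxo* and 0.0% for *Fbxw*, where 0 of 23 allows up to 14.3% by the Wilson interval. Unique members alone gave 28.6% for *Fbxw* (2 of 7, interval 8.22 to 64.1%). Without members that had a relative of the same family within 100 kb, *Fbxw* gave 22.2% (2 of 9, interval 6.32 to 54.7%), beside 22.5% of all genes, unfiltered. The other 8 alternatives moved the share of all members by less than its interval, and those for *Usp* (28.0 to 46.5%) and *Fbxl* (27.8 to 44.4%) stayed within theirs. The count of members with a second coding gene in reach ranged from 11 to 15 and the median width from 474.5 to 511 bp. The count of peaks over a TSS ranged from 24 to 27. The share of CpG-rich member promoters with a peak ranged from 46.2 to 50%. Among all genes of the same class that share ranged from 38.6 to 46.2%, the highest at a ratio of at least 0.75, where members had 47.5%. The alternatives on unique stretches, on transcripts for the position and on the CpG class at any TSS were chosen after seeing the data. No paired analysis was possible because both replicates are merged in 1 list, and for the same reason no replicate could be left out. Depth is unknown, so how many peaks deeper libraries would add was not measured.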

Other observations

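On the X chromosome, which the naming rule leaves out, *Usp9x*, a deubiquitinase that acts on β-catenin and Mcl1, had a promoter peak, and *Usp11*, *Usp26*, *Usp27x* and *Usp51* had none. This was 1 of 5 genes, on a chromosome where 2.43% of 948 protein-coding genes had a peak. *Fbxl12os*, the antisense gene beside *Fbxl12*, had a peak within 1000 bp of its start, while the nearest peak to a TSS of *Fbxl12* lay 6734 bp away.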
